A study of Homo sapiens with 4 samples.

Results

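The semaphorin, plexin, Eph receptor and ephrin genes were examined in the m6A map of OE-19 cells, a cell line derived from adenocarcinoma of the esophagogastric junction (AEG). Members were chosen by symbol among the protein-coding genes of the annotation. The rule gave 51 of 20046 genes, namely 20 semaphorins, 9 plexins, 14 Eph receptors and 8 ephrins. Of these genes, 31 (60.8%) carried an exonic m6A peak in both replicates, 4 in replicate 1 alone and 16 in neither. A peak in both was present in 32.0% of all protein-coding genes. Among other genes weighted to the members' exonic lengths it was present in 40.5%.

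Semaphorins are secreted, membrane-spanning or lipid-anchored ligands that steer growing axons, and plexins are their main receptors, which act on small GTPases through an intracellular GTPase-activating domain. Ephrins are ligands held at the cell surface, by a lipid anchor in the EFNA class and by a transmembrane segment in the EFNB class, and they bind the Eph receptor tyrosine kinases on neighbouring cells. All 4 families also act in epithelia and in carcinomas, where they bear on adhesion, cell sorting and migration. N6-methyladenosine (m6A) is a methyl mark on internal adenosines of mRNA that is laid down mainly within a GGAC-like core and is read by proteins that act on RNA stability and translation.

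In meRIP-seq, RNA fragments are pulled down with an antibody against m6A and sequenced, and a peak is a region where their reads accumulate. Of the 4 samples of OE-19 cells, 2 were replicates of the anti-m6A pulldown (IP) and 2 were replicates of input RNA. The peak list of IP replicate 1 held 24607 peaks and that of replicate 2 held 19318, and for the input samples no list was analysed here. With 1 group there was no contrast between conditions to test, so the values below describe the peaks, and the 2 replicate values stand in place of an error. The study calls them biological replicates, and the labels do not say whether they came from separate cultures. A single epithelial marker, the adhesion molecule CDH1, had a peak among the 5 that were looked up (fold enrichment 4.47 in replicate 1 and 3.85 in replicate 2), while EPCAM, KRT8, KRT18 and KRT19 had none. Of the 3 neuronal and 3 endothelial markers, 0 had a peak. Among other genes weighted to the same exonic lengths, the share with a peak in both replicates was 31.6% for the epithelial markers. It was 41.9% for the neuronal and 43.0% for the endothelial markers, so counts this small do not identify a cell type. A peak needs both expression and m6A, and neither read numbers nor expression were used here, so a gene without a peak may be unmethylated, unexpressed or too shallowly covered.

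The sequences at the highest peaks are shown first, because the GGAC core is the part of the RNA in which m6A is known to be made. The 8 members with the highest shared peaks that held a GGAC within 50 nt of the summit in replicate 1 were taken. For each, 27 nt around the GGAC nearest to that summit are given, with the GGAC in capitals. They are written 5′ to 3′ on the strand of the gene, from hg38.

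PLXNA3, coding sequence, chrX:154460451-154460477: ctggcccccgtGGACaacatcaacaag
PLXNA2, 3′ UTR, chr1:208025847-208025873: ctgcctctcacGGACttgtgagtgtga
SEMA3B, near the stop codon, chr3:50276637-50276663: ccgtaaccggaGGACccacgcccctga
EPHB1, near the stop codon, chr3:135259146-135259172: aggagggaaaaGGACcagggtcaaggg
SEMA3A, near the stop codon, chr7:83961488-83961514: gtttggaaaagGGACcgaaaacaacgt
EPHA4, 3′ UTR, chr2:221419484-221419510: cctgcataaatGGACttgttgaatgcg
SEMA3F, 3′ UTR, chr3:50188361-50188387: gggccaggccaGGACcacacagtcccc
PLXNA1, near the stop codon, chr3:127034063-127034089: agcagggaccgGGACagccctcaccgc

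PLXNA2, SEMA3A and EPHA4 lie on the minus strand and the other 5 on the plus strand. In PLXNA1, the adenosine of this GGAC lay 1 nt 3′ of the summit in replicate 1 and 2 nt 3′ of it in replicate 2. In SEMA3F it lay 47 nt and 21 nt 3′ of the summits, and in PLXNA3 25 nt and 57 nt, so the distance differed among genes. The replicate 2 summit of PLXNA3 had another GGAC within 50 nt. SEMA7A and SEMA3E, which ranked among these genes by fold enrichment, had no GGAC within 50 nt of their highest shared summits.

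First, the share of members with a peak was compared with that of other genes. In replicate 1, 35 members (68.6%, 95% Wilson interval 55.0% to 79.7%) had an exonic peak, beside 40.5% of all protein-coding genes. In replicate 2 there were 31 (60.8%, interval 47.1% to 73.0%), beside 32.7% of all protein-coding genes. A peak in both replicates was present in 31 members (60.8%), beside 32.0%, and a peak in either in 35 (68.6%), beside 41.2%. The members were longer than the typical gene, with a median exonic length of 6577 nt against 4416 nt, and longer genes more often carry a peak. The shares of other genes were therefore weighted to the exonic lengths of the members, which raised them to 49.9% in replicate 1, 41.4% in replicate 2, 40.5% in both and 50.8% in either. These weighted shares stayed below the lower ends of the members' intervals, which cover counting error only. Expression was not part of the weighting, and its part in the difference was not tested. When only peaks with a fold of at least 5 were kept, 18 members out of 51 had one in both replicates. The length-weighted share of other genes was then 24.5%. No interval was computed for that member count, so a separation from other genes is not shown at this stricter limit.

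By family, plexins had a peak in both replicates in 7 of 9 genes (77.8%, interval 45.3% to 93.7%), beside a length-weighted 47.9%, which the interval contains. For semaphorins it was 13 of 20 (65.0%, interval 43.3% to 81.9%), beside 42.2%, and for ephrins 5 of 8 (62.5%, interval 30.6% to 86.3%), beside 24.4%. Eph receptors had one in 6 of 14 (42.9%, interval 21.4% to 67.4%), close to their length-weighted 42.5%. The 4 intervals overlap, and the families were not tested against each other. The receptor total joined unlike classes, since 4 of 5 EPHB genes (80.0%, interval 37.6% to 96.4%) but 2 of 9 EPHA genes (22.2%, interval 6.32% to 54.7%) had a peak in both replicates. The corresponding length-weighted shares were 40.9% for EPHB and 43.4% for EPHA. The intervals of the 2 classes overlap, and the classes were not tested against each other.

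**Figure D1:**
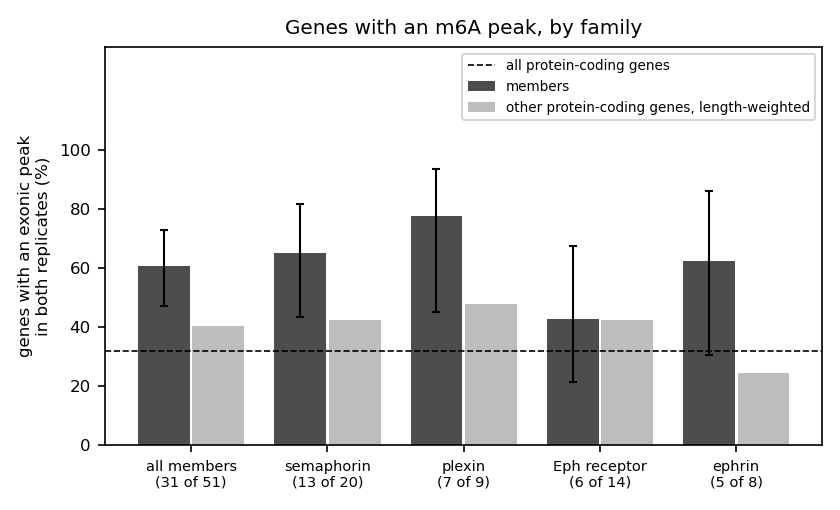
Share of genes with an exonic m6A peak in both replicates (%), for the members (dark bars, with 95% Wilson intervals of counting error), for other protein-coding genes weighted to the same exonic lengths (light bars) and for all protein-coding genes (dashed line, 32.0%). Plexins, semaphorins and ephrins sit above their light bars, while the Eph receptors, at 42.9%, sit at theirs.

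The 16 members without an exonic peak were the semaphorins SEMA3D, SEMA3G, SEMA5B, SEMA6C and SEMA6D, the plexins PLXNA4 and PLXNC1, the receptors EPHA1, EPHA3, EPHA5, EPHA6, EPHA7, EPHA8 and EPHA10, and the ephrins EFNA5 and EFNB3. The longest members, EPHA6 (18310 nt of exons), EPHA7 (16460 nt) and PLXNA4 (16364 nt), were among them. Of the ephrin ligands, the short EFNA4 (1257 nt) carried a peak in both replicates while EFNA5 (5735 nt) carried none. In these named genes the presence of a peak did not follow the order of exonic length, and the part of expression was not tested.

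The 4 members with a peak in replicate 1 alone came from 3 families. EPHB4, a receptor for EFNB2, had 4 such peaks, of which the highest reached a fold enrichment of 2.77. SEMA6A, a transmembrane ligand of class A plexins, had 1 peak at 4.91, and SEMA4C, a ligand of PLXNB2, had 1 at 5.59. EFNA3, a ligand of EPHA receptors, had 1 at 6.68, in its first exon.

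**Figure D2:**
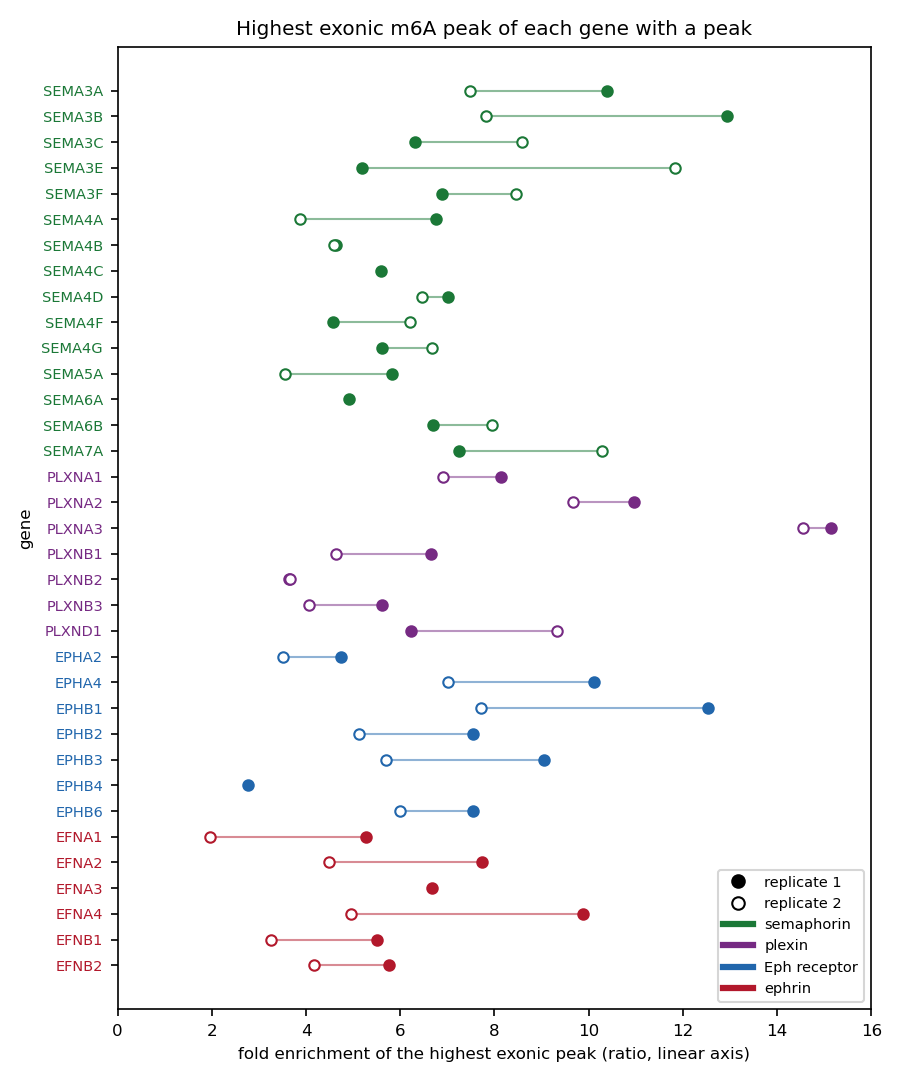
Fold enrichment of the highest exonic peak (x axis, ratio on a linear scale) for each of the 35 members with a peak, with filled points for replicate 1 and open points for replicate 2, coloured by family. PLXNA3 is highest in both replicates (15.1 and 14.5), and 4 genes have a filled point alone.

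Fold enrichment is the ratio of the pulled-down signal at the summit to the background estimated by the peak caller. Over all 98 exonic peaks of members in replicate 1 its median was 5.22, and over the 72 in replicate 2 it was 4.21. For all exonic peaks of protein-coding genes the medians were 5.21 over 18488 peaks and 4.72 over 12003 peaks. The medians were nearly equal in replicate 1, and that of the members was lower in replicate 2. The members had more peaks per gene with a peak, at 2.80 (2.28 over all genes) in replicate 1 and 2.32 (1.83 over all genes) in replicate 2, without an adjustment for length. At least 3 peaks were present in 17 of 35 members (48.6%, beside 32.0% of genes with a peak) in replicate 1 and in 12 of 31 (38.7%, beside 20.1%) in replicate 2.

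Of the 98 member peaks in replicate 1, 64 were found again in replicate 2 by overlap (65.3%, interval 55.5% to 74.0%), beside 60.6% of all exonic peaks. In the other direction it was 67 of 72 (93.1%, interval 84.8% to 97.0%), beside 95.9%. Matching each peak with the partner that it overlapped most gave 63 pairs in 30 genes. SEMA4F was the exception among the 31 genes, since its peak in replicate 1 (4.57, 3′ UTR, 1381 nt past the stop codon) and its peak in replicate 2 (6.21, coding sequence) lay apart. The median gap between paired summits was 26 bp, as over the 10835 pairs of all protein-coding genes.

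In 50 of these 63 pairs (79.4%) replicate 1 had the higher fold enrichment, beside 80.6% of the pairs of all protein-coding genes. The median of log2(replicate 1/replicate 2) was 0.47, beside 0.44 for the pairs of all genes. The Eph receptors followed this in 13 of 13 pairs, the ephrins in 9 of 10 and the plexins in 16 of 19. The semaphorins split, with 12 pairs higher in replicate 1 and 9 in replicate 2 and a median log2 ratio of 0.11. Since the background was estimated for each list apart, a higher value in 1 list does not by itself mean more m6A.

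**Figure D3:**
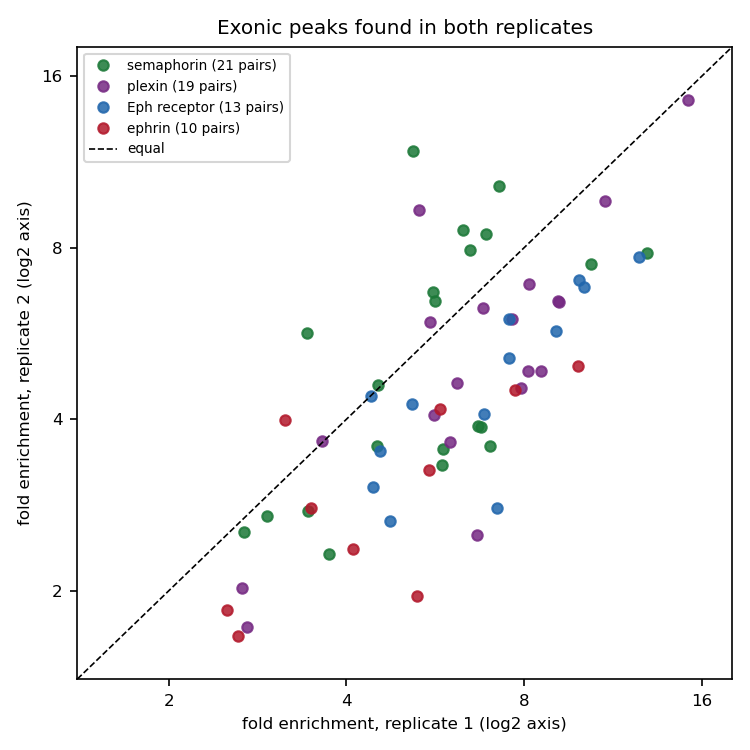
Fold enrichment in replicate 1 (x axis) and replicate 2 (y axis), both on log2 axes, for the 63 pairs of overlapping exonic peaks, coloured by family. All 13 Eph receptor pairs lie below the dashed line of equal values, whereas 9 of the 21 semaphorin pairs lie above it. Of the pairs of all protein-coding genes, which are not drawn, 80.6% are higher in replicate 1.

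Next, the ligands were described. Among the secreted class 3 semaphorins, which act through neuropilins and plexins, 5 of 7 genes had a peak in both replicates (71.4%, interval 35.9% to 91.8%), beside a length-weighted 41.5%, which the interval contains. SEMA3B reached 12.9 in replicate 1 and 7.82 in replicate 2, at chr3:50276283-50277099. Its summits lay in the last of 17 exons, at −97 nt and −95 nt from the stop codon (negative values lie 5′ of it). The transcript used for SEMA3B ends with the stop codon, and the peak runs past that end. SEMA3A, the classical repellent of axons, reached 10.4 and 7.48 at chr7:83961357-83961731, also in its last exon, with summits at −115 nt and −96 nt.

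SEMA3C reached 6.31 and 8.58 at chr7:80744804-80745301, with summits at −194 nt and −189 nt. The highest peaks of SEMA3A, SEMA3B and SEMA3C thus all had their summits in the last exon, within 200 nt before the stop codon. In replicate 1 the peaks themselves also ran past it. SEMA3F had its summits on the other side, with 6.89 and 8.45 at chr3:50188243-50188775, at 214 nt and 240 nt past the stop codon.

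SEMA3E, a ligand that binds PLXND1 without a neuropilin, was the exception of the class. Its highest peak lay in the 5′ UTR in exon 1 (chr7:83648574-83648850), and it had 5.18 in replicate 1 and 11.8 in replicate 2, the widest gap in favour of replicate 2 among the 63 pairs (log2 ratio −1.19). Its receptor PLXND1 also stood higher in replicate 2, at 5.31 and 9.33, in the last of 36 exons. SEMA3A and SEMA3C had 1 peak in each list, SEMA3B had 3 and 2, SEMA3F had 2 and 1, and SEMA3E had 1 and 2. The paralogues SEMA3D and SEMA3G had no exonic peak in either list.

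All 6 class 4 semaphorins, which span the membrane, had a peak in replicate 1 (interval 61.0% to 100%, beside a length-weighted 53.1%). In replicate 2, 5 had one (83.3%, interval 43.6% to 97.0%, beside 43.8%). SEMA4D, the ligand of PLXNB1, had 5 and 4 peaks, and the highest was 7.01 in replicate 1 and, at another place, 6.46 in replicate 2. SEMA4A, which also acts on immune cells, had a single peak in the 3′ UTR, at 6.77 and 3.87. SEMA4G had 4 and 5 peaks, with highest values of 5.61 and 6.68, and for SEMA4B the highest values were 4.65 and 4.59, from different peaks.

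Classes 5, 6 and 7 gave 3 genes with a peak in both replicates. In class 5 it was 1 of 2 genes (50%, beside a length-weighted 48.1%), and in class 7 the only gene, beside 31.2%. SEMA7A, the lipid-anchored member, had 1 peak in each list, which reached 7.25 and 10.3 in the last of 14 exons (chr15:74410231-74410794), with summits 214 nt and 189 nt past the stop codon. SEMA6B had its highest value in the 3′ UTR in replicate 1 (6.69, with 3.89 there in replicate 2) and near the stop codon in replicate 2 (7.94, with 6.47 there in replicate 1). SEMA5A, a ligand with thrombospondin repeats, reached 5.82 and 3.55. SEMA6A had a peak in replicate 1 alone, so of the 4 class 6 genes 1 had a peak in both (25%, beside a length-weighted 42.2%).

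The ephrins were the shortest members, with a median exonic length of 2820 nt. EFNA4 had the highest peak, at 9.87 and 4.95, with summits 95 nt and 127 nt past the stop codon. EFNA2 lay in the same place, at 86 nt and 78 nt, with 7.73 and 4.50. EFNA1, the main ligand of EPHA2, had 5.27 in replicate 1 but 1.96 in replicate 2, the lowest best value of any member in either list.

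The transmembrane ligands EFNB1 and EFNB2 carried peaks at both ends. EFNB1 had 5 and 3 peaks, with the highest in the 5′ UTR at 5.52 and 3.26. EFNB2 had 4 and 5 peaks, with the highest in the 3′ UTR at 5.76 and 4.16. The 3′ UTR summits of EFNB2 also lay in an exon of an overlapping gene (ENSG00000284966), and without strand in the lists they cannot be told apart. In each of the 5 ephrins with a peak in both replicates, the highest peak was higher in replicate 1, the direction of 80.6% of all pairs.

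Among the receptors, the class A plexins, which pair with neuropilins to receive class 3 semaphorins, had a peak in both replicates in 3 of 4 genes (75.0%, interval 30.1% to 95.4%), beside a length-weighted 50.3%, which the interval contains. PLXNA3 reached 15.1 and 14.5 in exon 2 of 33, in the coding sequence (chrX:154459788-154460811), and these were the highest values of any member in each replicate. Of its 3 and 2 peaks, a further shared one lay in exon 3, at 9.16 and 6.41. PLXNA2 had the most peaks of all members, 10 in replicate 1 and 6 in replicate 2, and the highest was 10.95 and 9.66 in the 3′ UTR (chr1:208025328-208026251).

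PLXNA1 had 5 and 4 peaks and reached 8.15 and 6.92 in its last exon (chr3:127033829-127035960), with summits 60 nt and 59 nt past the stop codon. The class B plexins are receptors of class 4 semaphorins. PLXNB1 had 6.64 (exon 11) and 4.63 (exon 3), PLXNB3 had 5.62 and 4.07, and PLXNB2 had 3.64 and 3.66. When any overlap of a peak with an exon was counted, PLXNB2 reached 8.33 and 8.03, so its place among the plexins depended on that rule. PLXNA4 and PLXNC1, a receptor of SEMA7A, had no exonic peak in either list.

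The highest Eph receptor was EPHB1, at 12.5 and 7.70 in the last of 16 exons (chr3:135259029-135259795), with summits at −215 nt and −191 nt from the stop codon. EPHB3 reached 9.06 and 5.70, also in its last exon (chr3:184581371-184582315), with summits 64 nt and 45 nt past the stop codon. EPHB1 had 2 and 1 peaks, and EPHB3 had 3 in each list. EPHB2 lay at the same place as EPHB3, at 53 nt and 59 nt, with 7.54 and 5.13.

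EPHA4, a receptor that binds both ephrin classes, had 3 and 4 peaks, with its highest shared peak in the 3′ UTR at 9.90 and 7.02 (chr2:221419381-221419623). EPHA2, which is often high in carcinomas, was low by comparison, at 4.74 in exon 1 in replicate 1 and 3.51 in the last exon in replicate 2, although it had 5 and 4 peaks. EPHB6, a receptor whose kinase domain is inactive, had a single peak, at 7.55 and 6.0, in exon 7 of its coding sequence. Each of the 6 Eph receptors with a peak in both replicates was higher in replicate 1, again the direction of 80.6% of all pairs.

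The place of the summits on the transcript was then compared with that of all genes, using for each gene its transcript of longest coding sequence (CDS). The window of 200 nt on either side of the stop codon held 20.2% of 94 member summits in replicate 1 (interval 13.3% to 29.4%) and 29.0% of 69 in replicate 2 (interval 19.6% to 40.6%). Over all genes this was 24.5% and 27.1%, and the window makes up 8.34% and 8.11% of the length of the members' transcripts. The share in the rest of the 3′ UTR was 30.9% and 30.4% for members, against 17.4% and 19.1% for all genes, outside the members' intervals. That region makes up 31.8% and 34.3% of the length of the members' transcripts, which the same intervals contain. Over all genes it makes up 35.9% and 37.1%. The members' 3′ UTR share was thus near its share of length, and that of all genes was below it. The share in the CDS was lower, at 38.3% and 30.4% against 49.2% and 48.0%. The CDS makes up 52.8% and 50.5% of the members' transcripts, against 46.0% and 45.3% over all genes. The share in the 5′ UTR was 10.6% and 10.1% against 8.91% and 5.71%.

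**Figure D4:**
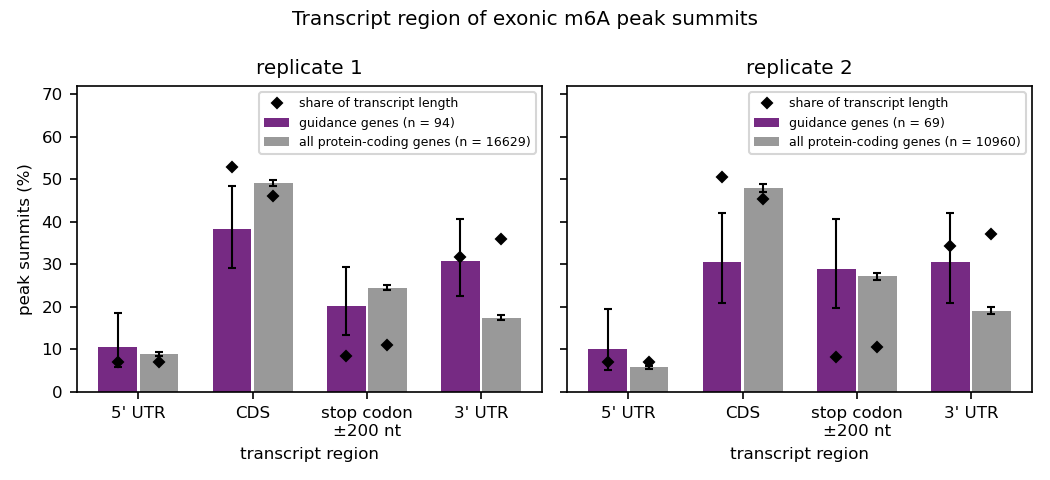
Share of exonic peak summits (%) in the 5′ UTR, CDS, stop codon window and 3′ UTR for the guidance genes (purple) and for all protein-coding genes (grey), in replicate 1 (left) and replicate 2 (right), with 95% Wilson intervals. Diamonds give the share of transcript length in each region. In both replicates the members' 3′ UTR share, 30.9% and 30.4%, stands above that of all genes, and their CDS share stands below. Their 3′ UTR share is near its share of transcript length, 31.8% and 34.3%.

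The families were then set side by side by the exon that held the summit, without intervals or a test between them. Of the semaphorin summits, 19 of 26 (73.1%) in replicate 1 and 20 of 24 (83.3%) in replicate 2 lay in the last exon, beside 48.4% and 56.6% over all genes. Of the plexin summits, 13 of 30 (43.3%) and 9 of 19 (47.4%) did, and 16 of 30 and 9 of 19 lay in internal exons. Eph receptors resembled the plexins, with 12 of 23 and 7 of 15 summits in internal exons. Summits of 1 gene share a transcript, so neither these shares nor the region shares above rest on independent summits.

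The length of the internal exons that held summits was then examined, after the values had been seen. Of the members' CDS summits in internal exons, outside the stop codon window, 13 of 31 in replicate 1 (41.9%, interval 26.4% to 59.2%) lay in exons of 400 nt or more, beside 54.0% over all genes. In replicate 2 it was 13 of 16 (81.3%, interval 57.0% to 93.4%), beside 77.3%. Both intervals contain the share of all genes. Exons of 400 nt or more make up 19.1% and 21.5% of the internal exon length of the members' transcripts. Over all genes they make up 37.2% and 46.8%. The summit shares of members and of all genes were thus above these shares of length, which are lower for the members. Per gene, the internal exon with the most coding bases was taken. Among the 31 members with a peak in both replicates, 12 had such an exon with 400 or more coding nt, and in 11 of them (91.7%) a summit lay in it in both replicates. Where that exon was shorter than 400 nt, this was so in 1 of 19 (5.26%), namely EFNB2. Over all genes with a peak in both replicates the same shares were 82.8% of 1942 and 7.19% of 3700. The split by exon length was thus also present in genes at large. EPHB6 in both lists and PLXNB3 in replicate 2 had no peak outside that exon. They met the condition of a peak in both replicates only through it, so their outcome was fixed. The share of transcript length that these exons take was not set beside these shares. Of the 13 semaphorins and 5 ephrins with a peak in both replicates, 0 had an internal exon with 400 or more coding nt.

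All 6 plexins of classes A and B with a peak had one. It was exon 2 in PLXNA1 (1267 nt), PLXNA2 (1268 nt) and PLXNA3 (621 nt), exon 3 in PLXNB1 (1113 nt) and PLXNB2 (1081 nt), and exon 4 in PLXNB3 (1041 nt). These exons encode N-terminal residues, in the part of the plexin where the ligand-binding sema domain lies. The overlapping peaks covered between 80.6% and 100% of the exon in replicate 1 and between 79.7% and 100% in replicate 2, so they were broad.

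Their fold enrichments differed among the plexins. PLXNA3 had 15.1 and 14.5, PLXNA1 had 6.80 and 6.27, and PLXNB1 had 6.15 and 4.63. PLXNA2 had 5.54 and 5.93, PLXNB3 had 5.62 and 4.07, and PLXNB2 had 3.64 and 3.66. The summits fell at codons 120 and 112 in PLXNA1, at 134 and 119 in PLXNB1, and at 207 and 210 in PLXNB2. In PLXNA2 they fell at codons 27 and 341, so within its exon the replicates marked different points.

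Among the Eph receptors, 5 of 6 had summits in the long exon in both replicates. It was exon 3 in EPHA2 (670 nt), EPHA4 (664 nt), EPHB2 (685 nt) and EPHB3 (673 nt), and exon 7 in EPHB6 (784 nt). The N-terminal ligand-binding domain of the Eph receptors lies in this part of the protein. The values were 4.43 and 3.05 in EPHA2, 6.84 and 4.09 in EPHA4, 5.17 and 4.25 in EPHB2, 4.40 and 4.39 in EPHB3, and 7.55 and 6.0 in EPHB6. The exception was EPHB1, whose exon 3 is 682 nt long and held no summit.

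**Figure D5:**
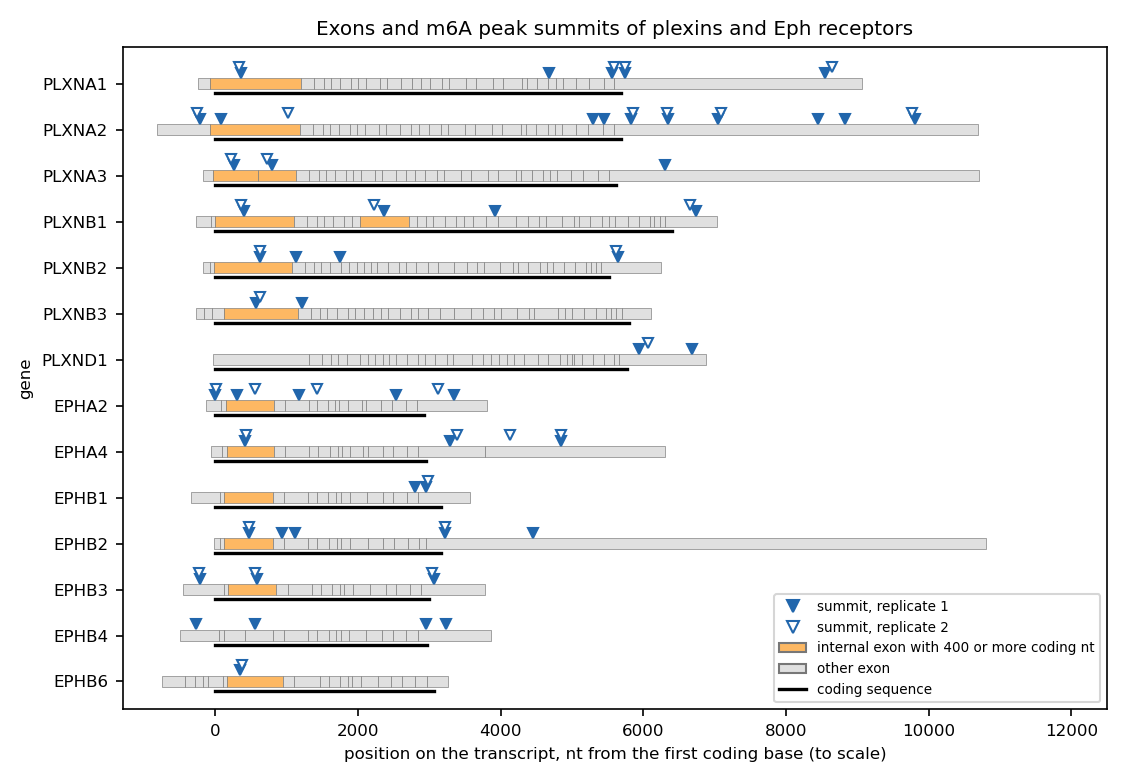
Exons (boxes, to scale) of the transcript with the longest CDS for the plexins and Eph receptors with a peak, in nt from the first coding base, with the summits of replicate 1 (filled triangles) and replicate 2 (open triangles). Orange marks internal exons with 400 or more coding nt, and a black line marks the CDS. In 11 of the 12 genes that have such an exon and a peak in both replicates, both kinds of triangle stand over it.

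To see whether these exons shared the sequence under the summits, the GGAC nearest to the replicate 1 summit is shown for 7 of them. The set was chosen with the values known. It holds the exons with a GGAC within 50 nt of that summit that are not printed above for the same peak. EPHA2, EPHA4 and EPHB6 had no GGAC within 50 nt of that summit and are left out.

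PLXNA1, exon 2, chr3:126988942-126988968: ctgctgctgctGGACtatgccgctaac
PLXNA2, exon 2, chr1:208217869-208217895: gccctggaggtGGACagccgctctgtg
PLXNB1, exon 3, chr3:48424183-48424209: gagcggcctggGGACacacaatatgtg
PLXNB2, exon 3, chr22:50289967-50289993: gaagcctacacGGACcacgccacctac
PLXNB3, exon 4, chrX:153767284-153767310: taccaggctgaGGACcctggtgacggg
EPHB2, exon 3, chr1:22784704-22784730: ttctcccaggtGGACctgggtggccgc
EPHB3, exon 3, chr3:184572891-184572917: ctggccttccaGGACcagggcgcctgc

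PLXNA2, PLXNB1 and PLXNB2 lie on the minus strand. The replicate 2 summit of PLXNA2 lay 943 bp from that of replicate 1, so the GGAC shown is near the replicate 1 summit alone. The replicate 2 summit of PLXNB1 had no GGAC within 50 nt. In global alignments, the plexin exons shared 32.0% to 62.9% of positions over 15 pairs of genes. The 5 pairs with PLXNA3, whose exon is the shortest, gave 32.0% to 40.1%, since an alignment with a longer exon counts the unmatched bases, and the other 10 gave 46.8% to 62.9%. The Eph exons shared 51.3% to 73.4% over 10 pairs. At most 2 GGAC aligned in any pair, and 0 aligned in 6 of the 15 plexin pairs and in 5 of the 10 Eph pairs. Each exon held several, from 3 in PLXNB3 to 11 in PLXNB2 and from 2 in EPHB3 to 9 in EPHB6.

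GGAC was then counted within 50 nt of every member summit, on the strand of the gene. It was present at 59 of 98 summits in replicate 1 (60.2%, interval 50.3% to 69.3%) and at 48 of 72 in replicate 2 (66.7%, interval 55.2% to 76.5%). Among all exonic summits of protein-coding genes it was present at 49.8% and 51.9%. Of the 193992 exonic positions of the same members outside peaks, 35.8% had a GGAC within this distance. The reverse complement GTCC stood at 32.7% and 34.7% of member summits and at 30.9% of those positions. GGACT, which holds GGAC within it, stood at 21.4% and 23.6% of member summits, beside 17.7% and 19.0% of all summits and 9.94% of the positions. A match gives the letters in the window and does not place the methylated base. Windows around summits were cut from the genome, so near an exon edge they can hold intron sequence.

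Finally, a list of 52 further genes was examined, holding genes that act with these families and 20 genes of other guidance families. A peak in both replicates was present in 20 of the 52 (38.5%), beside a length-weighted share of 42.1% and the 32.0% of all protein-coding genes. This places the list below the first and above the second. By role these were 2 of 4 co-receptors (50%, beside a length-weighted 48.5%), 9 of 19 effectors of plexins (47.4%, beside 39.1%) and 4 of 9 effectors of Eph receptors and ephrins (44.4%, beside 40.7%). Of the genes of other guidance families it was 5 of 20 (25%, beside 44.4%), and netrins, SLIT ligands and their receptors make up most of that list.

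The 5 genes of this list with the highest shared peaks were in the range of the highest members or above it. Of these, RGMB and ROBO1 were listed under other guidance families. RGMB, a ligand of the receptor neogenin, reached 22.9 in replicate 1 and 21.6 in replicate 2. NRP1, the neuropilin that receives SEMA3A together with class A plexins, reached 17.1 and 18.8, both above PLXNA3, while its paralogue NRP2 had no peak. The Rac activator TIAM1 reached 13.5 and 10.1, the kinase FYN 11.2 and 8.89, and the SLIT receptor ROBO1 8.66 and 11.4.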

How the data were processed

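Groups were taken from the sample labels. The labels list fastp, HISAT2 and MACS2 with hg38, whereas the study's methods name TopHat2 in place of HISAT2, and which aligner made the lists was not settled. Default settings are stated, versions and the use of the input as control are not. The labels also describe UV-fixed cells, and the methods fragmented total RNA.

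The authors deposited 1 peak list per IP replicate, holding a fold enrichment per summit (the ratio to the caller's background), −log10 p-values and −log10 q-values, a score equal to the whole part of 10 times −log10 q (checked, not used further) and the summit offset. The highest q was 0.0491 and 0.0497. The lists hold no read numbers, so the depth is unknown, and Wilson intervals cover counting error only.

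Summits were assigned to GENCODE version 44 exons on hg38, with protein-coding genes first, since the lists carry no strand. Coordinates are 1-based. An overlap of 1 bp or more made peaks shared. Length weighting averaged the share of other genes over 20 bins of exonic length. Members and lists were chosen with earlier results of these data known, so counts are descriptions and no test was run. Every member is named, the 12 with the highest geometric mean fold of a shared peak are given with coordinates, sequences are shown for the first 8 of them with GGAC, and 5 partners were named by the same mean. Python 3.11.15, pandas 2.3.3, pysam 0.24.0, Biopython 1.88 and matplotlib 3.10.9 were used, and the assignment was tested on simulated data. Alternatives were other q and fold limits, equal list sizes, other overlap rules, windows and length measures, and each replicate left out.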

Additional observations from a re-analysis of the deposited data

Results flagged for a closer look

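Peaks with the summit in an intron of a member were not used in any comparison above. There were 13 in replicate 1, in 10 genes, and 21 in replicate 2, in 12 genes, and 5 and 6 of them overlapped a peak of the other replicate. They were singled out because they are signal outside the exonic measurement, and no input list was analysed here to set a background.

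PLXNB2 had the clearest pair, at chr22:50307441-50307630, where the fold enrichments of 8.33 and 8.03 (replicates 1 and 2) were both above its highest exonic peak. This peak also reached into an exon. It lay at the 5′ end of the gene, which is on the minus strand and starts at position 50307646. An intronic pair of PLXNA2 reached 6.54 and 7.06, and one of SEMA3C 6.68 and 7.70. SEMA3A had 6 intronic peaks in replicate 2 and 1 in replicate 1, and the shared one (chr7:84334597-84334754) stood at 3.65 and 10.1. EPHA5, PLXNA4, SEMA3D and SEMA6D had intronic peaks in replicate 2 alone, while none of them had an exonic peak. Repeats and read depth at these sites were not examined.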

How the results depend on the processing

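The counts of members with a peak kept within 1.5 times their values under every alternative except a fold enrichment of 5 or more, which left 19 in replicate 2 and 18 in both. Leaving out either replicate gave 31 to 35 members. The length-weighted shares of other genes with bins of transcript length were 51.7% (replicate 1), 44.3% (replicate 2), 43.3% (both) and 52.7% (either). For both replicates, this share was 37.1% at q of 1e-05 or less, 24.5% at a fold of 5 or more and 39.7% with equal list sizes, the last 3 being alternatives added after the data were seen. Overlap of member peaks in replicate 1 was 75.3% at q of 1e-05 or less, 46.2% at a fold of 5 or more and 55.1% with summits within 100 bp. In replicate 2 it was 76.4% when 50% of both peaks had to overlap and 75.0% with summits within 100 bp. The stop codon share was 11.7% and 18.8% with a window of 100 nt, and 34.0% in replicate 1 with 400 nt. GGAC was present at 40.8% and 38.9% of summits within 25 nt and at 79.6% and 80.6% within 100 nt, as shorter and longer windows must give. Counting peaks by any overlap with an exon raised the highest fold of SEMA4G to 9.20 and of EPHA2 to 6.64 in replicate 1, and of PLXNB2 to 8.33 and 8.03. The EPHA2 and PLXNB2 values belong to peaks with the summit in an intron. That of SEMA4G belongs to a peak whose summit was not assigned to an exon of this gene. At q of 1e-05 or less, SEMA4B fell to 3.60 in replicate 2, and EFNA1 had no peak left there. No paired analysis was possible because 1 group had values and no result came from a test.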

Other observations

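A few member peaks lay in exons that the transcript with the longest CDS does not contain. There were 4 in replicate 1, in 3 genes, and 3 in replicate 2, in 2 genes, and they entered the counts of members but not those of transcript regions. SEMA4B had one that was shared, at 4.53 and 4.59 (chr15:90193328-90193530), and in replicate 2 this was its highest exonic peak. SEMA4D had a shared one at 7.01 and 3.60 (chr9:89361903-89362300), its highest in replicate 1. Which transcripts OE-19 cells make was not measured in these files.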
